A study of Homo sapiens with 2 samples.

Results

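The 37 genes described here encode the front end of the ubiquitin system: the polyubiquitin precursor UBB, 5 activating (E1) genes and 31 conjugating (E2) genes. They were taken by gene symbol from a deposited table of 60612 gene rows with 50229 symbols, and each symbol matched 1 row. The cells were ARP1, an established line of multiple myeloma, a cancer of antibody-secreting plasma cells. One library has VCP knockdown as its treatment (here labelled siVCP) and the other is the control (labelled siNC). Both were made from poly(A) RNA, and the labels used here state no time after transfection and no agent other than the knockdown. VCP encodes p97, an ATPase that pulls ubiquitin-tagged proteins out of membranes and complexes. With 1 library per group there is no replicate error and no test. Every difference is one between these libraries, and the 95% intervals in brackets cover counting error only. In bulk RNA, fewer cells with a transcript and less transcript per cell cannot be told apart.

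Levels are FPKM, read fragments scaled to transcript length and library depth, and pairs of values are given with the siVCP label first and the siNC label second. "Higher" and "lower" describe the library labelled siVCP. VCP went against its label, with an FPKM of 65.9 and 47.7, 1.38-fold higher [1.33 to 1.43], so directions refer to the labels alone. All 9 plasma cell markers were expressed, each reaching at least 13.2 in one of the libraries. The markers of T, myeloid, stromal, epithelial and erythroid cells summed to at most 2.77 per cell type. Of 5 adipocyte markers PPARG had 7.64 and 8.84 and the other 4 were at 0.

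Ubiquitin is a small protein that cells attach to other proteins. An E1 enzyme activates it with ATP, an E2 enzyme carries it as a thioester, and an E3 ligase brings the loaded E2 to the target. Ubiquitin is made as fusions that are cut into single units: UBB encodes head-to-tail ubiquitin repeats, and RPS27A encodes ubiquitin joined to a ribosomal protein. Plasma cells secrete large amounts of antibody and depend on ubiquitin-driven disposal of misfolded proteins from the endoplasmic reticulum (ER).

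The ubiquitin repeats of UBB are shown because they encode the same protein several times in a row, in bases that differ only at synonymous positions. They were read from a GENCODE 29 transcript, 5′ to 3′ on the plus strand of GRCh38, at chr17:16381908-16382135, chr17:16382136-16382363 and chr17:16382364-16382591. Capitals mark positions at which the repeats are not all alike.
UBB unit 1: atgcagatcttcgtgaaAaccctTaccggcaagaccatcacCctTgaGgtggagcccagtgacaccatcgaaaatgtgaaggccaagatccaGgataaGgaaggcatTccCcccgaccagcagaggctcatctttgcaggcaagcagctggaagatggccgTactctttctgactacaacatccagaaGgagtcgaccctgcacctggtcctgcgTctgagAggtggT
UBB unit 2: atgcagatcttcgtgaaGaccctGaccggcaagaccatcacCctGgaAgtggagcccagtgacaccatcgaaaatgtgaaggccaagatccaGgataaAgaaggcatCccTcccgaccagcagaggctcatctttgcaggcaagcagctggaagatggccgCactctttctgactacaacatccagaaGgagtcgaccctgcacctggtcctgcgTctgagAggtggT
UBB unit 3: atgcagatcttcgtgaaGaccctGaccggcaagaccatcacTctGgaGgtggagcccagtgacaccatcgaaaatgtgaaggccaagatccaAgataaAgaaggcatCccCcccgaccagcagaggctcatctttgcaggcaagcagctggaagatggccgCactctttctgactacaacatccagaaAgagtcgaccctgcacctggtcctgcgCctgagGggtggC
Each of the 3 units has 228 bases, of which 14 positions differ among them, while all 76 encoded amino acids are the same. Base identity between pairs of units was 94.7% to 96.5%.

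As a group, the 37 genes differed little between the libraries. An FPKM of 1 in either library was reached by 36 of them, all but UBE2W. Their median log2 ratio, log2((FPKM labelled siVCP + 1)/(FPKM labelled siNC + 1)), was 0.03 against -0.02 for all 11645 genes that reached that level. On this scale 1 gene, UBE2J2, was higher by 1.5-fold or more, where the background over all genes was 4.53%. Likewise 1 gene, UBE2K, was lower by 1.5-fold or more, where the background was 5.87%. Of the 36 genes, 25 lay within 0.3 of 0, which is 69.4%, against 64.4% of all genes. By counting error alone, 16 had an interval wholly above 1 (28.6% of all genes), 12 wholly below 1 (32% of all genes) and 8 spanned 1. Low genes have wide intervals. At an FPKM of at least 5, 16 of 31 genes lay above 1 and 8 below, against 2558 and 1870 of all 6245.

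**Figure D1:**
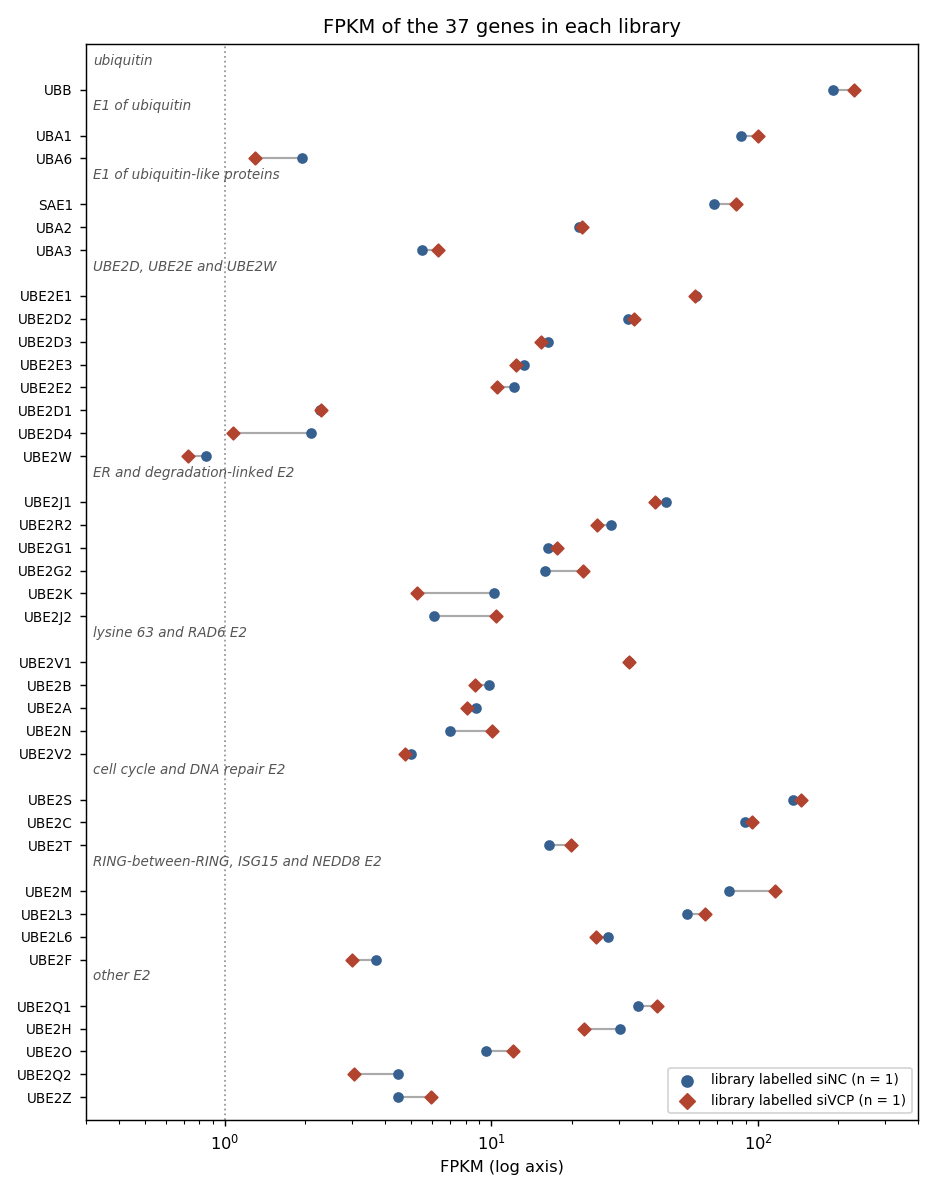
FPKM on a log axis of each of the 37 genes in the library labelled siNC (blue circles) and the library labelled siVCP (red diamonds), 1 library each, grouped by role. The dotted line marks an FPKM of 1. Most pairs of points lie close together, and those of UBE2K (5.27 and 10.2) and UBE2D4 (1.07 and 2.09) are the widest apart.

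UBB and the ubiquitin fusion gene RPS27A lay on opposite sides of 1. UBB (ENSG00000170315, GRCh38 chromosome 17, 16380798 to 16382740, plus strand) had an FPKM of 229 and 192, on 29580 and 26135 counts, and was 1.19-fold higher [1.15 to 1.23]. It had the highest FPKM of the 37 genes in both libraries. RPS27A, which is not among the 37, had 95.6 and 108, 1.13-fold lower [1.09 to 1.17].

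UBB is known to be induced along with heat shock chaperones under protein stress. Of 13 measured chaperone genes, 11 had a log2 ratio above 0, against 5492 of all 11645 genes. On either scale 3 were higher by 1.5-fold or more: DNAJB1 (1.80-fold), HSPA8 (1.71-fold) and HSPE1 (1.56-fold). Over all genes 4.53% were on the log2 ratio scale and 6.89% by plain FPKM ratio. Stress-inducible BAG3 and HSPB1 were both 1.06-fold higher, and HSPD1 was 1.06-fold lower. HSPA4 was at the other end, with 21.0 and 26.9, 1.28-fold lower.

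The E1 genes that activate ubiquitin lay on opposite sides of 1. UBA1, the main ubiquitin E1, had an FPKM of 99.6 and 86.2, 1.16-fold higher [1.13 to 1.18]. UBA6, which activates both ubiquitin and the ubiquitin-like protein FAT10, had 1.3 and 1.95, 1.5-fold lower [1.3 to 1.74]. UBA1 supplied 98.7% and 97.8% of their summed FPKM, and the sum was 1.14-fold higher. By plain FPKM ratio, which does not shrink low genes, 3 of the 36 genes (UBE2D4, UBE2K and UBA6) were lower by 1.5-fold or more, against 12.3% of all genes. UBE2J2 was again the 1 gene higher by that much, against 6.89% of all genes.

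The E1 subunits for ubiquitin-like proteins lay at or slightly above 1. SAE1 and UBA2 form the dimer that activates SUMO. SAE1 had 82.7 and 68.4, 1.21-fold higher [1.17 to 1.25], whereas UBA2 had 21.9 and 21.2, with an interval that spans 1 [0.975 to 1.1]. UBA3, the catalytic subunit of the NEDD8 E1, had 6.31 and 5.48, 1.15-fold higher [1.02 to 1.31]. Its partner NAE1, which is not among the 37, had a log2 ratio of 0.12.

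The UBE2D and UBE2E families work with many E3 ligases and were close to equal in the libraries, apart from UBE2D4. UBE2D4 had an FPKM of 1.07 and 2.09, 1.95-fold lower [1.54 to 2.49]. These values rest on 420 and 864 counts, and the log2 ratio of -0.58 lies just short of 1.5-fold. UBE2D2 led the family with 34.2 and 32.6, and its interval spans 1 [0.99 to 1.11]. UBE2D3 had 15.4 and 16.3, 1.06-fold lower [1.01 to 1.11], and UBE2D1 had 2.29 and 2.28 [0.808 to 1.25]. The family summed to 52.9 and 53.3.

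UBE2E1 was the highest of its family at 58.0 and 58.3, with a fold of 0.994 [0.952 to 1.04]. UBE2E2 had 10.5 and 12.1, 1.16-fold lower [1.05 to 1.29]. UBE2E3 had 12.4 and 13.2, and its interval spans 1 [0.85 to 1.04]. UBE2W, which attaches ubiquitin to the amino end of its targets, was under the level filter at 0.726 and 0.852, with an interval that spans 1 [0.674 to 1.07].

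The highest and lowest log2 ratios were both among the E2 genes tied to the ER and to degradation. UBE2J2 (ENSG00000160087, chromosome 1, 1253909 to 1273855, minus strand), an E2 anchored in the ER membrane, had an FPKM of 10.4 and 6.10, on 4026 and 2501 counts, and was 1.7-fold higher [1.54 to 1.88]. Its log2 ratio of 0.68 was above that of 96.9% of all genes. UBE2J1, the other membrane-anchored E2 of ER disposal, had 41.0 and 45.1, 1.1-fold lower [1.05 to 1.15]. The opposite differences left the sum of the pair at 51.4 and 51.2. UBE2G2, a soluble E2 recruited by ER ligases, had 22 and 15.9, 1.38-fold higher [1.31 to 1.46]. UBE2G1, its paralog, had 17.6 and 16.3, 1.08-fold higher [1.01 to 1.16].

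UBE2K (ENSG00000078140, chromosome 4, 39698109 to 39782792, plus strand) builds ubiquitin chains of the kind read by the proteasome. It had an FPKM of 5.27 and 10.2, on 2256 and 4596 counts, and was 1.93-fold lower [1.75 to 2.14]. Its log2 ratio of -0.83 was above that of 2.28% of all genes. UBE2R2, which extends chains on targets of cullin-RING ligases, had 24.8 and 28.1, 1.13-fold lower [1.07 to 1.2]. Its paralog CDC34, which is not among the 37, had a log2 ratio of -0.01.

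UBE2N, the catalytic E2 of non-degradative chains in DNA repair and NF-kappaB signalling, had 10.0 and 6.99, 1.43-fold higher [1.31 to 1.56]. Its partners UBE2V1 and UBE2V2 resemble an E2 but lack the catalytic cysteine. UBE2V1 had 32.9 and 32.7, and its interval spans 1 [0.96 to 1.06]. UBE2V2 had 4.76 and 5, and its interval also spans 1 [0.855 to 1.06]. Of the 100-base runs of the longest UBE2N coding transcript, 46.4% also occur in NUDT4, a gene on the opposite strand, which had 2.79 and 3.98. No source used here states strandedness, and reads of that stretch cannot be told apart.

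UBE2A and UBE2B are the human counterparts of yeast Rad6, which marks PCNA in DNA damage tolerance and histone H2B in transcribed chromatin. UBE2A had 8.13 and 8.74, and its interval spans 1 [0.848 to 1.02]. UBE2B had 8.68 and 9.82, 1.13-fold lower [1.01 to 1.27]. Of the paired subunits of the histone H2B ligase that works with them, RNF40 had 35.7 and 21.3, 1.67-fold higher [1.6 to 1.75], and RNF20 had 5.26 and 5.84, with an interval that spans 1 [0.797 to 1.01].

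The E2 genes of the cell cycle were close to equal. UBE2C starts and UBE2S extends ubiquitin chains with the anaphase-promoting complex in mitosis. UBE2C had 95 and 89.6, 1.06-fold higher with an interval whose lower bound is just above 1 and whose upper bound is 1.12. UBE2S had 145 and 136, 1.07-fold higher [1.04 to 1.1]. UBE2T, the E2 of the Fanconi anemia pathway, had 19.8 and 16.5, 1.2-fold higher [1.08 to 1.35]. Of 15 measured genes of the anaphase-promoting complex, 0 differed by 1.5-fold or more on the log2 ratio scale, with ANAPC2 highest at 0.38 and CDC27 lowest at -0.32. Of 15 genes of G2/M and mitosis 3 were lower by 1.5-fold or more on that scale, against 5.87% of all genes. These were MKI67 (-1.22), CENPF (-0.95) and TOP2A (-0.83), and the list median was -0.07.

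UBE2M, which loads NEDD8 onto cullins and so switches on cullin-RING ligases, had the second highest log2 ratio of the 37 genes, at 0.56. Its FPKM was 115 and 77.9, on 16607 and 11831 counts, 1.48-fold higher [1.41 to 1.55]. UBE2F, the other NEDD8 E2, had 3 and 3.67, 1.22-fold lower [1.04 to 1.44]. UBE2M supplied 97.5% and 95.5% of their summed FPKM. Of 16 cullin-RING and neddylation genes, 0 differed by 1.5-fold or more on the log2 ratio scale, with a median of -0.06, and 1, CUL4B, was lower by that much by plain FPKM ratio (2.8 and 4.47). CUL4B was lowest with a log2 ratio of -0.52, and RNF7, the RING subunit that UBE2F works with, was highest at 0.33. NEDD8 itself had a log2 ratio of 0.04.

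UBE2L3 works with RING-between-RING and HECT ligases, and UBE2L6 is the E2 of the interferon-induced modifier ISG15. UBE2L3 had 63.2 and 54.1, 1.17-fold higher [1.12 to 1.22]. UBE2L6 had 24.6 and 27.3, 1.11-fold lower [1.02 to 1.21]. ISG15 had 20.7 and 22, with an interval that spans 1 [0.82 to 1.09]. Of 15 listed interferon-stimulated genes, 8 were measured. All 8 had log2 ratios below 0, against 6153 of all 11645 genes, and the intervals of ISG15 and IRF7 span 1. The list median was -0.46, but -0.15 with no filter and -0.20 with a pseudocount of 5. It was -0.55 at an FPKM of 5. On the log2 ratio scale 1 of the 8, IFI6 (1.07 and 2.17, on 75 and 160 counts), was lower by 1.5-fold or more, against 5.87% of all genes. By plain FPKM ratio 4 of the 8 were lower by that much (IFI6, IRF9, OAS1 and OAS2), against 12.3% of all genes. IRF9 (0.834 and 1.59) reached an FPKM of 1 only under the siNC label. UBA7, the E1 of ISG15, was below an FPKM of 1 in both libraries. Of 10 measured RING-between-RING ligases, 0 differed by 1.5-fold or more on the log2 ratio scale, with SHARPIN highest at 0.40 and RNF19A lowest at -0.56. By plain FPKM ratio 1, RNF19A, was 1.58-fold lower.

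The remaining E2 genes fell on both sides. UBE2H, the E2 of the CTLH ligase complex, had 22.2 and 30.4, 1.37-fold lower [1.3 to 1.43]. UBE2Q2 had 3.06 and 4.47, 1.46-fold lower [1.24 to 1.72]. Its paralog UBE2Q1 had 41.8 and 35.6, 1.17-fold higher [1.12 to 1.23]. UBE2O, a large enzyme that acts as both E2 and E3, had 12.1 and 9.51, 1.27-fold higher [1.18 to 1.37]. UBE2Z, which takes its charge from UBA6, had 5.96 and 4.44, 1.34-fold higher [1.2 to 1.5], while UBA6 was lower.

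**Figure D2:**
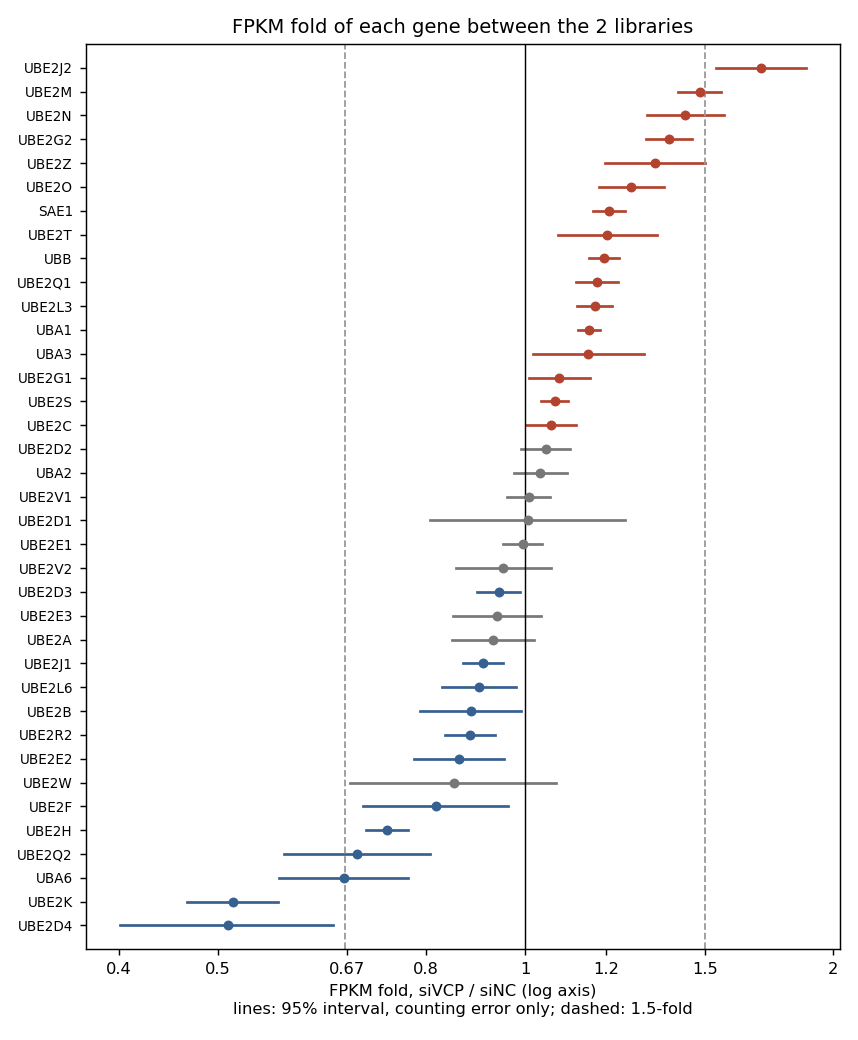
FPKM fold (library labelled siVCP over library labelled siNC, log axis) of the 37 genes, ordered by fold, with 95% intervals that cover counting error only. Red intervals lie above 1, blue ones below 1 and grey ones span it, and the dashed lines mark 1.5-fold. UBE2J2 is the point to the right of the right line, and UBE2K, UBE2D4 and (barely) UBA6 lie to the left of the left line.

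The order of levels was nearly the same in both libraries, with a Spearman rho of 0.98 across the 37 genes. FPKM compares genes per length only roughly here, since the transcript length that FPKM and count imply was 1.16 to 3.34 times the longest coding transcript of GENCODE 29. The highest E2 gene by FPKM was UBE2S, followed by UBE2M and UBE2C in the library labelled siVCP and by UBE2C and UBE2M in the other. The lowest were UBE2W, UBE2D4 and UBE2D1. The summed FPKM of the 31 E2 genes was 871 and 812, a ratio of 1.07, and that of the 5 E1 genes was 212 and 183, a ratio of 1.16. In the UBE2D, UBE2E, UBE2V, UBE2J, UBE2Q and UBE2L families a single gene carried at least 61.2% of the family sum in each library. UBE2B held 51.6% and 52.9% of its sum with UBE2A. UBE2G2 led its pair in the library labelled siVCP and UBE2G1 in the other.

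Other steps of the system are set beside the 36 genes, with counts past 1.5-fold on the log2 ratio scale first and by plain FPKM ratio second. Over all genes 4.53% were higher and 5.87% lower on the log2 ratio scale, and 6.89% and 12.3% by plain ratio. Of 32 proteasome subunit genes, 20 were higher (22 by plain ratio) and 0 were lower on either scale. Their median log2 ratio was 0.63, from PSMA2 at -0.05 to PSMD11 at 1. Of 47 measured deubiquitinating enzyme genes, 0 were higher and 1, USP9X, was lower, with a median of -0.04. By plain ratio 1 was higher and 9 were lower, some of which reached an FPKM of 1 only under the siNC label. Of 12 genes of ER ligases and their partners 0 passed the log2 ratio limit and 1, DERL2, was higher by plain ratio. Their median log2 ratio was -0.09, from UBXN4 at -0.49 to DERL2 at 0.46. Among 10 ligases of DNA repair and chromatin, RNF40 was higher and HLTF lower on the log2 ratio scale, with a median of -0.18. By plain ratio RNF40 was higher and 3 were lower (HLTF, TRAF6 and UBR2). A further 13 E1 and E2 genes outside the 37 had a median of 0.07 with 0 past 1.5-fold on that scale, from BIRC6 at -0.48 to UBE2QL1 at 0.50, and 1, MOCS3, was higher by plain ratio. The difference between lists was not tested.

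**Figure D3:**
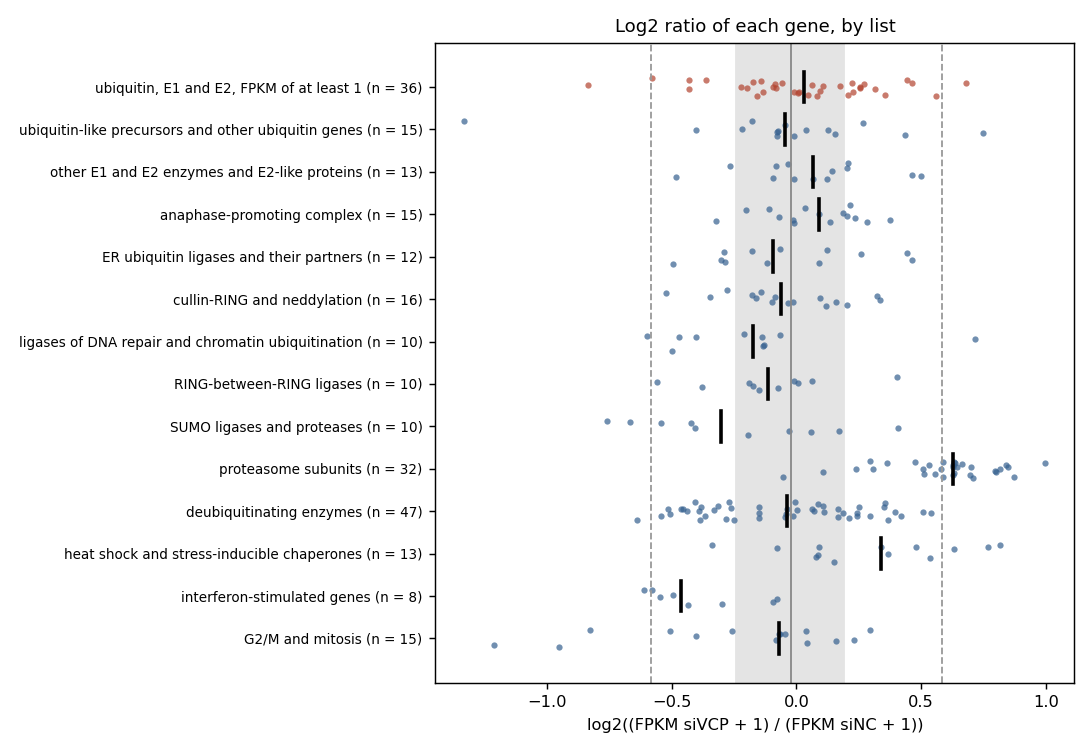
Log2 ratio of each measured gene (points) by list, with the list median (black bar). The grey band spans the middle quartiles of all 11645 genes, the grey line is their median of -0.02, and the dashed lines mark 1.5-fold. The 36 ubiquitin, E1 and E2 genes (red) centre on 0.03 and the proteasome genes on 0.63.

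Log2 ratios of the 36 genes ran with the base composition of their transcripts. Spearman's rho with the GC content of the longest coding transcript was 0.54 over the 36 genes and 0.30 over 9712 genes with such a transcript, as a description across genes that share both libraries. UBE2M (65.6% GC) and UBE2J2 (60.2%) were the most GC-rich and had the highest log2 ratios, and UBE2K, with the lowest, had 36.8%. UBE2N (41.7%) and UBE2L6 (57.2%) lay away from that order. So did others, such as UBE2D4 (47.8%, log2 ratio -0.58, the second lowest) and UBE2T (43.7%, 0.25). With transcript length rho was -0.24 for the 36 genes and -0.25 for all. The part of base composition or length in these differences was not tested.

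**Figure D4:**
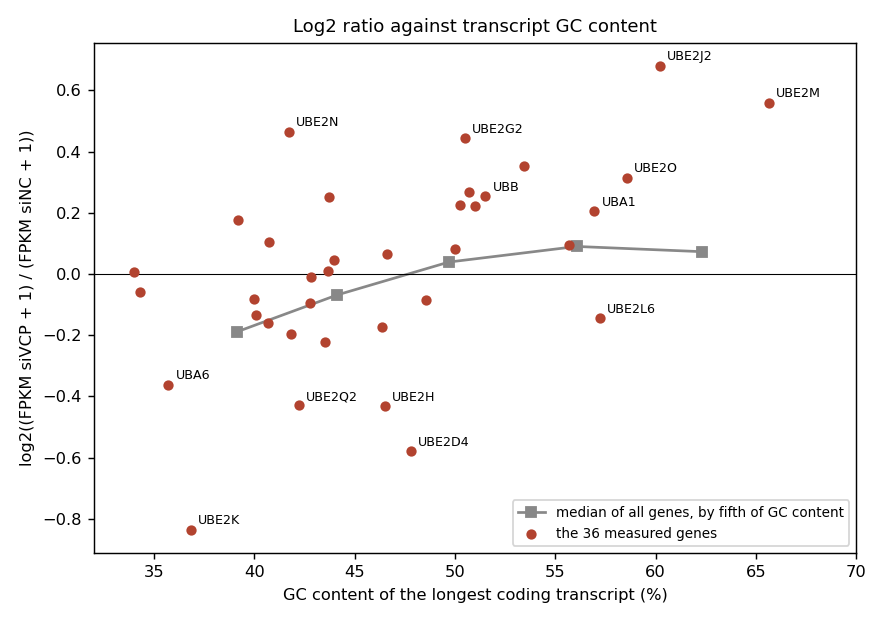
Log2 ratio of the 36 genes (red points) against the GC content of the longest coding transcript in percent. Grey squares give the median log2 ratio of all genes in each of 5 equal groups by GC content, from -0.19 to 0.09. UBE2J2 and UBE2M lie at the upper right and UBE2K at the lower left.

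The 250 bases before the RefSeq start are shown for UBE2J2 and UBE2K, the genes with the highest and lowest log2 ratio, and for UBB, the ubiquitin precursor. They are given 5′ to 3′ on the strand of the gene (RefSeq, GRCh38.p14), at chr1:1273855-1274104 (minus strand), chr4:39697886-39698135 (plus strand) and chr17:16381091-16381340 (plus strand, 1 of 2 starts in the table). Capitals mark a match on either strand to TGACNNNGC, the core of the antioxidant response element bound by NRF1 and NRF2.
UBE2J2 upstream: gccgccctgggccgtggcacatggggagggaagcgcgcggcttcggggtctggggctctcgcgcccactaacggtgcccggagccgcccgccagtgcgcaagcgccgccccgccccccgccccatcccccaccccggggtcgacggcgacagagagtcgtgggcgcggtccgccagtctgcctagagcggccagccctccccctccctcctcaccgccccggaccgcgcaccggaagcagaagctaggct
UBE2K upstream: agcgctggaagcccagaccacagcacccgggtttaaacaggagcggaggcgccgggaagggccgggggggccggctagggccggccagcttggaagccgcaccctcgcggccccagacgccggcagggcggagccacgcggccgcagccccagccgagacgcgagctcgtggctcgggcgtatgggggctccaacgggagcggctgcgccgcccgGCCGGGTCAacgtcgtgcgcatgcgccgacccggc
UBB upstream: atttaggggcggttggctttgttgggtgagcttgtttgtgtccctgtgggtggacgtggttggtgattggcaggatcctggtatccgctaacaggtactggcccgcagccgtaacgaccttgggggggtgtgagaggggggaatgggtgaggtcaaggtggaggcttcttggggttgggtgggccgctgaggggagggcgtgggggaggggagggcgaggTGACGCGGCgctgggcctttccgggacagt
The UBE2J2 and UBE2K windows are both 76.8% GC, with 31 and 35 CG dinucleotides, and the UBB window is 64% GC with 13. Of the 37 genes, 30 had a window in the table. TGACNNNGC occurred on either strand in 5 of them (UBB, UBE2D2, UBE2J1, UBE2K and UBE2Q2), against 10.9% of 35116 windows of all genes. For each motif, a gene counts if any of its windows matches, whereas the background share is per window. These are unlike measures, and a gene with several starts has more chances of a match. These 5 genes had FPKM folds from 0.517 to 1.19. GAANNTTC, the short form of the heat shock element, was in 0 of the 30, against 5.78% of all windows. The full heat shock element, which contains the short form, was also in 0, against 0.441%. TTTGAA, a cell cycle motif, was in 2 (UBE2F and UBE2T, against 13.3%). The interferon-stimulated response element was in 1 (UBE2D3, against 3.02%) and the ER stress response element in 0 (against 0.0740%). Matches are letters in these windows, not binding sites.

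Some of the 37 rows share sequence with another gene. For 27 of them, UBE2J2 and UBE2K included, no 100-base run of the longest coding transcript occurs in an annotated transcript of another gene on either strand. UBE2V1 shared 80.8% of its runs with the read-through row TMEM189-UBE2V1, which had 0 counts in both libraries. UBB shared 27.0%, mostly with the antisense locus AC093484 (51 and 110 counts), and UBE2F shared 16.7% with the read-through row UBE2F-SCLY (0 and 10 counts). UBE2D4 shared 11.6% with POLR2J4, UBE2S 10.1% with other loci, led by its copy UBE2SP1, and UBE2M 3.62% with its copy UBE2MP1. Rows of at least 1000 summed counts overlapped 6 of the genes on the opposite strand. These were RPL28 at UBE2S (97403 and 113965 counts), ZC3H4 at SAE1, NKRF at UBE2A, NUDT4 at UBE2N, NKIRAS1 at UBE2E1 and POLR2J4 at UBE2D4, and the values of these 6 genes are uncertain to the extent that reads overlap.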

How the data were processed

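Poly(A) RNA was sequenced from both ends, per the labels' protocols, in 1 library per group. HISAT2 2.0 and StringTie 1.3.0 appear in the submitters' processing notes, which give no role or order. FPKM values were normalized by the authors, per the file headers. Estimated counts deposited beside them summed to 68872657 (siVCP) and 72566092 (siNC). Rows at 4 counts (1205 and 1179) far outnumbered rows at 3 or 5, from which it was inferred that a fragment adds 4 counts. The build is not given in the sources used here, nor is the annotation. Of 58394 identifiers found in GENCODE 29, 90.6% had a matching start or end on GRCh38, as did 31 of the 37 genes.

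FPKM was taken as 0 where the count was 0, rows of the same symbol were summed, and genes at or above an FPKM of 1 in either library were kept. The pseudocount of 1 understates differences of low genes. Exact conditional binomial 95% intervals came from counts divided by 4, scaled to the FPKM fold. Without molecular identifiers reads are not independent molecules. The computation was tested on simulated data, and no count model was run. Alternatives were pseudocounts of 0.1 and 5, no filter or an FPKM of 5, and the median of all genes set to 0. Others were CPM, the highest row per symbol and a 2-fold threshold. The CPM log2 ratios, for example of UBB and UBE2M, lie above those that the count totals given here yield. This setting was therefore not scaled by those totals alone, and the scaling behind its upward shift is not stated here.

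The 37 genes, the 13 pathway lists, the 7 marker lists and the naming rule were chosen with earlier results of these data known. The rule names the 37 genes, VCP, other ubiquitin genes, up to 3 genes at each end of a list, markers, and overlapping rows or copies. NAE1, CDC34, NEDD8, UBA7, SUMO2, HSPB1 and IRF9 fall outside it and were chosen after their values were seen. Some genes that the rule names are not reported here. Sequences came from GENCODE 29 and RefSeq (GRCh38.p14). Versions were Python 3.11.15, with pandas 2.3.3, numpy 2.4.6, scipy 1.17.1, Biopython 1.88 and matplotlib 3.10.9.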

Additional observations from a re-analysis of the deposited data

How the results depend on the processing

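No paired analysis was possible because the groups have a single library each, and for the same reason none could be left out. The median log2 ratio of the 36 genes, 0.03, lay between 0.01 and 0.08 under the other pseudocounts, filters and scalings. It was 0.08 at an FPKM of 5, where the median of all genes also rose, from -0.02 to 0.05. With CPM it was 0.07, which includes the upward shift of that setting. The median was -0.01 over the 27 genes without a shared 100-base run, a setting chosen after seeing the data. Members past 1.5-fold numbered 1 higher and 1 lower. A pseudocount of 0.1 gave 2 lower. A pseudocount of 5, or a 2-fold threshold, gave 0 higher and 0 lower. CPM gave 2 higher and 2 lower, adding UBE2M and UBE2D4. UBE2M passed only with the upward shift of that setting, since by its counts and the count totals it stays under 1.5-fold. Over all genes, 528 were higher and 684 lower. With a pseudocount of 0.1, 770 were higher and 1351 lower. Higher and lower counts became 163 and 141 (pseudocount 5), 328 and 288 (FPKM of 5), 897 and 1349 (CPM, with its shift), and 122 and 153 (2-fold threshold). Among the 36 genes (31 at an FPKM of 5), UBE2E1 was the one that changed sign, from -0.01 to 0.02 with the median of all genes set to 0. It was 0.05 in the CPM setting, but its counts and the count totals leave it just below 0. Depth limits the low genes most: UBE2D1, at 661 and 693 counts, has an interval of 0.808 to 1.25.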

Other observations

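Genes of SUMO, a ubiquitin-like modifier with its own E1, E2 and ligases, were not uniform. SUMO3 had an FPKM of 18.6 under the siVCP label and 48.3 under the siNC label, 2.6-fold lower [2.42 to 2.79], the lowest log2 ratio (-1.33) among the 15 measured ubiquitin-like precursors and other ubiquitin genes. SUMO2 had a log2 ratio of -0.01. Of 10 measured SUMO ligase and protease genes, 7 had a log2 ratio below 0, against 6153 of all 11645 genes. Among them 2 proteases were lower by 1.5-fold or more on the log2 ratio scale, against 5.87% of all genes. These were SENP5 (4.41 and 8.17, 1.85-fold) and SENP7 (0.831 and 1.91, 2.29-fold). SENP7 reached an FPKM of 1 only under the siNC label. SENP3 (26.3 and 19.6) was 1.34-fold higher. By plain FPKM ratio 3 were lower by 1.5-fold or more, PIAS1 included, against 12.3% of all genes. The list median was -0.30, against -0.02 for all genes, but with the filter at an FPKM of 5 it was 0.06, against 0.05 for all genes, so its direction was lost. It was -0.17 with a pseudocount of 5 and -0.19 with no filter.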
